A study of Mus musculus with 4 samples.

Results

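The genes described here were 10 imprinted genes of mouse skeletal muscle, out of 16472 genes in the table. They were chosen by symbol, and all 10 were found. They lie in 4 imprinted domains, namely H19-Igf2 (H19, Nctc1 and Igf2), Dlk1-Dio3 (Meg3, Rian, Mirg and Dlk1), Kcnq1 (Kcnq1ot1 and Cdkn1c) and Peg3 (Peg3). Of the 10 genes, 6 are annotated as noncoding (H19, Nctc1, Meg3, Rian, Mirg and Kcnq1ot1) and 4 as protein-coding. RNA sequencing had been done on wild-type (WT) skeletal muscle in 4 libraries, 2 of isolated mitochondria and 2 of the tissue left after their isolation, called remaining tissue here. The titles of the second group name total muscle and a legend of the study names lysate of the whole muscle, whereas its treatment label names tissue without mitochondria, so whether it holds whole or depleted muscle is not settled. Neither group received another treatment according to the labels, and age, sex, muscle and number of animals are not given for these libraries in the sources used here. The methods describe backcrossing to 129SV for the mutant lines of the study and their WT mice, without saying whether these libraries came from such WT mice. The study sequenced both fractions to find long noncoding RNAs (lncRNAs) that lie in mitochondria, and the comparison below asks how imprinted RNAs of each class were distributed between the 2 fractions.

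Imprinted genes are transcribed mainly from the copy inherited from 1 parent, under the control of a methylated region that is shared by a domain. In H19-Igf2, the lncRNA H19 comes from the maternal copy and the growth factor gene Igf2 from the paternal copy. In Dlk1-Dio3, the lncRNAs Meg3, Rian and Mirg are maternal and Dlk1, which codes for a membrane protein of the Delta-like family that restrains differentiation, is paternal. Kcnq1ot1 is a long nuclear RNA of the paternal copy that silences neighbours in cis, among them Cdkn1c, a cyclin-dependent kinase inhibitor. Peg3 is a paternal zinc finger gene. These growth genes are active in fetal muscle, and most of them decline after birth, while H19 remains abundant in adult muscle.

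The values in the table are normalized counts, that is, gene counts divided by a size factor of each library and rounded. In isolated mitochondria they could be turned back into whole reads, with 1 read worth 9.049 normalized counts in replicate 1 and 5.059 in replicate 2. In remaining tissue 1 normalized count stood for an estimated 7.05 reads, and rounding hid differences of up to that size. This factor was assumed to be equal for both libraries of remaining tissue, so a difference in depth between them was not recovered. Isolated mitochondria were sequenced to 42749263 and 35306106 reads, and remaining tissue to about 15702491 and 15300357. Reads of mitochondrially encoded genes took 95.3 and 94.1% of isolated mitochondria and 22.3 and 20.5% of remaining tissue. Without them and without nuclear copies of mitochondrial genes, isolated mitochondria held only 100924 and 181152 reads, against 11988495 and 11967537 in remaining tissue. The values of the 10 genes in isolated mitochondria rest on 0 to 44 reads per gene and library. Because of this gap in depth, shares are given as ppm (reads per 1000000 of these nuclear reads) with their 95% Wilson intervals, which cover counting error only. Libraries are listed throughout as remaining tissue replicates 1 and 2, followed by isolated mitochondria replicates 1 and 2. The labels do not say whether replicates came from separate animals, so p-values measure the spread between these libraries.

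Of the 10 genes, 7 reached a mean of 20 normalized counts over the 4 libraries and were tested with limma on log2(normalized count + 1), and Igf2, Mirg and Dlk1 stayed below that minimum. Kcnq1ot1 and Nctc1, both noncoding, were lower in isolated mitochondria at an adjusted p under 0.05, no gene was higher (limma; 1 at an unadjusted p under 0.05, Cdkn1c, which edgeR and DESeq2 both called), and 5 did not pass the threshold (H19, Meg3, Rian, Cdkn1c and Peg3). Over all 6916 genes tested, 16.6% were called, 7.32% as higher and 9.3% as lower. The median log2 fold change of the 7 genes, isolated mitochondria over remaining tissue, was -0.39, against -0.44 over all genes tested. It was -0.56 for the 5 noncoding genes tested and 0.36 for the 2 coding genes tested, which were Cdkn1c and Peg3. The groups did not overlap for 4 of the 7 genes (H19, Nctc1, Kcnq1ot1 and Cdkn1c), against 69.1% of all genes tested (43.7% without overlap and lower, 25.5% higher). Without remaining tissue replicate 1 or 2, neither gene was called, while 472 and 501 genes were called over all genes (1149 with all libraries). Without isolated mitochondria replicate 1, 4 of the 10 were called (40.1% of all genes lower and 24.9% higher), and without isolated mitochondria replicate 2, 3 of the 10, namely Kcnq1ot1 and Nctc1 lower and Meg3 higher (46.2% of all genes lower and 23.8% higher), with 4498 and 4841 genes in all. Across the 15 alternatives the share of all genes called lower ran from 2.54% without remaining tissue replicate 1 to 96.8% with scaling to the total of all genes.

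**Figure D1:**
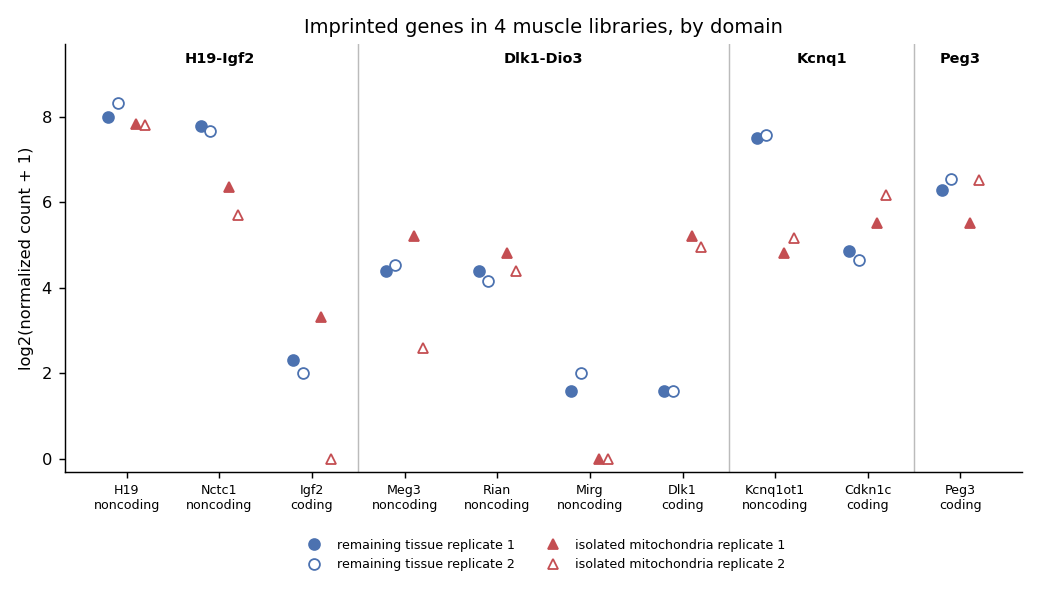
Levels of the 10 imprinted genes on the log2(normalized count + 1) scale, with noncoding and coding genes marked under the axis and domains separated by vertical lines; circles are remaining tissue and triangles isolated mitochondria, filled for replicate 1 and open for replicate 2. Nctc1 and Kcnq1ot1 lie lower in isolated mitochondria (81 and 51 against 218 and 202 normalized counts for Nctc1), and Dlk1 lies higher (36 and 30 against 2 and 2).

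H19, the most abundant of the 10, is a lincRNA gene (ENSMUSG00000000031) at chr7:142575529-142578143 of GRCm38, on the minus strand, with 2460 nt of exons. It had 255, 317, 226 and 223 normalized counts, which corresponded to about 1798 and 2235 reads in remaining tissue and to 25 and 44 in isolated mitochondria. Both libraries of isolated mitochondria lay below both of remaining tissue, by little. The log2 fold change was -0.34 (SE 0.21) and did not pass the threshold (limma, adjusted p = 0.299). As a share of nuclear reads the order turned, with 150 and 187 ppm in remaining tissue and 248 and 243 ppm in isolated mitochondria, with intervals of 168 to 366 and 181 to 326. With libraries scaled to this nuclear total, the log2 fold change was 0.55, again without passing the threshold. The direction for H19 thus depended on the scaling.

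An exon of H19 holds the hairpin of miR-675, whose 84 nt make up 3.41% of the H19 exons and lie on the same strand. Its mature sequences (RefSeq, GRCm38.p6, minus strand, chr7:142577112-142577133 for the 5p arm and chr7:142577078-142577099 for the 3p arm) are shown because reads of the hairpin stretch cannot be told from reads of H19, with the seed (bases 2 to 8) in capitals.
mmu-miR-675-5p: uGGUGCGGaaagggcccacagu
mmu-miR-675-3p: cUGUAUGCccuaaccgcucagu
The seeds of the arms differ, and no other mature miRNA inside the 10 genes shares either of them. The libraries measured the long RNA, and mature miRNAs were not analysed here. The small gene Gm27483 (71 nt) lies wholly within an H19 exon on the opposite strand and had 2, 2, 0 and 0 normalized counts. The strand setting of the counting is not given in the sources used here.

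Nctc1, a noncoding transcript that runs over a muscle enhancer of the same domain, had 218, 202, 81 and 51 normalized counts. The gene (ENSMUSG00000087090, chr7:142544609-142558596, minus strand, 3438 nt of exons) shares no exon with another gene, and its reads numbered 9 and 10 in isolated mitochondria against an estimated 1537 and 1424. Both libraries of isolated mitochondria lay far below remaining tissue. Nctc1 was 3.18-fold lower by the means, with a log2 fold change of -1.69 (SE 0.31; limma, adjusted p = 0.0385). Its share of nuclear reads was 128 and 119 ppm in remaining tissue and 89.2 and 55.2 ppm in isolated mitochondria, where the interval of replicate 1 (46.9 to 169) reached above both values of remaining tissue and the upper bound of replicate 2 was 102. The call was kept in 8 of 15 alternatives, edgeR (12.6% of genes called lower) and DESeq2 (12.7%) among them. The 8 also include the fits without isolated mitochondria replicate 1 (log2 fold change -2.02) or replicate 2 (-1.36). Far more of all genes were called lower in these fits than in the main fit. With the all-gene total as scale, 96.8% of genes were lower, so the call kept there says little about Nctc1 itself. The call was not kept in every setting. It was lost without remaining tissue replicate 1 (log2 fold change -1.64) and without replicate 2 (-1.75). Scaling to the nuclear total also lost it, with a log2 fold change of -0.80 (limma, adjusted p = 0.152). So did no minimum mean (limma, adjusted p = 0.0537), a minimum mean of 5 (0.064), the upper quartile (0.0727) and eBayes without trend (0.0662).

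Igf2, the growth factor gene of the domain (ENSMUSG00000048583, chr7:142650766-142666816, minus strand, 5723 nt of exons), was close to the limit of detection. It had 4, 3, 9 and 0 normalized counts, and the value of 9 in isolated mitochondria was a single read. The groups overlapped, and no difference was detectable at this depth, since 0 of 181152 reads in isolated mitochondria replicate 2 allows a share of up to 16.6 ppm (3 reads of the total) and remaining tissue held 2.34 and 1.75 ppm. Of the exon bases of Igf2, 62.83% are shared on the same strand with the annotated gene Gm49394 (GENCODE M21), and reads that overlapped several genes were left out by the authors. The part of this overlap in the low level of Igf2 was not tested.

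In the Dlk1-Dio3 domain the 3 lncRNAs were low in muscle. Meg3 (ENSMUSG00000021268, chr12:109541001-109571726, plus strand, 18089 nt of exons) had 20, 22, 36 and 5 normalized counts, the last 2 from 4 reads and 1 read. The 2 libraries of isolated mitochondria lay on opposite sides of remaining tissue, and the log2 fold change of -0.56 had an SE of 1.06 (limma, adjusted p = 0.722). It was -1.87 without isolated mitochondria replicate 1 and 0.75 without replicate 2, both past the threshold (adjusted p = 0.0163 and 0.0352 by limma), so that 1 library decided the direction. Rian (ENSMUSG00000097451, chr12:109603808-109661716, plus strand), the host of a cluster of small nucleolar RNAs, had 20, 17, 27 and 20 normalized counts and a log2 fold change of 0.32 (SE 0.47; limma, adjusted p = 0.642). Its groups touched at 20 and rested on 3 and 4 reads in isolated mitochondria.

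Mirg (ENSMUSG00000097391, chr12:109729764-109749460, plus strand, 7292 nt of exons) is the host of a microRNA cluster, with 14 hairpins and 26 mature miRNAs inside the gene on its strand. It had 2, 3, 0 and 0 normalized counts, or an estimated 14 and 21 reads in remaining tissue. Counts of 0 allow, by the same limit of 3 reads, a share of up to 29.7 and 16.6 ppm in isolated mitochondria (Wilson upper bounds of 38.1 and 21.2 ppm), well above the 1.17 and 1.75 ppm of remaining tissue, so that these libraries were too shallow to compare the groups. Rian holds 3 such hairpins, and Meg3, H19 and Igf2 hold 1 each.

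Dlk1, the coding gene of the domain (ENSMUSG00000040856, chr12:109452823-109463336, plus strand, 5657 nt of exons, none shared with another gene), had higher values in both libraries of isolated mitochondria. It had 2, 2, 36 and 30 normalized counts, from an estimated 14 reads in each library of remaining tissue and 4 and 6 reads in isolated mitochondria. Its share of nuclear reads was 1.17 ppm in both libraries of remaining tissue, and 39.6 and 33.1 ppm in isolated mitochondria, with intervals (15.4 to 102 and 15.2 to 72.3) that lay above those of remaining tissue. Its mean of 17.5 normalized counts kept it out of the main test, and it was called higher in the 2 alternatives that included it, with a log2 fold change of 3.50 in both. The adjusted p was 0.0171 with no minimum mean, where 4.04% of all genes were called higher, and 0.0490 with a minimum mean of 5, where 2.39% were (limma). With the minimum mean of 5, a gene as low as this in remaining tissue enters the test only when it is high in isolated mitochondria.

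Kcnq1ot1, the silencing lncRNA of the Kcnq1 domain, showed the largest difference among the 7 genes tested. The gene (ENSMUSG00000101609, chr7:143203458-143296549, minus strand) is 1 unspliced exon of 93092 nt. It had 180, 189, 27 and 35 normalized counts, from an estimated 1269 and 1332 reads in remaining tissue and 3 and 7 reads in isolated mitochondria. The groups lay far apart, and Kcnq1ot1 was 5.95-fold lower by the means, with a log2 fold change of -2.55 (SE 0.26; limma, adjusted p = 0.0149). As a share of nuclear reads it held 106 and 111 ppm in remaining tissue and 29.7 and 38.6 ppm in isolated mitochondria, whose intervals (10.1 to 87.4 and 18.7 to 79.8) lay below the lowest bound in remaining tissue, 100 ppm. The call was kept in 13 of 15 alternatives, the scaling to the nuclear total (2.65% of genes called lower) among them. The 13 also include the fits without isolated mitochondria replicate 1 (log2 fold change -2.36) or replicate 2 (-2.73). With the all-gene total as scale, 96.8% of genes were lower, so the call kept there says little about Kcnq1ot1 itself. The call was lost without remaining tissue replicate 1 (log2 fold change -2.58) or replicate 2 (-2.51). Kcnq1ot1 shares 121 nt with Kcnq1 on the opposite strand, and holds stretches near-identical to 1268 other genes, whose reads would align to several places.

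Cdkn1c, the coding gene of this domain (ENSMUSG00000037664, chr7:143458339-143461050, minus strand, 2039 nt of exons), pointed the other way. It had 28, 24, 45 and 71 normalized counts, from an estimated 197 and 169 reads in remaining tissue and 5 and 14 reads in isolated mitochondria. The groups did not overlap, and the log2 fold change of 1.10 (SE 0.37) did not pass the threshold (limma, adjusted p = 0.116). Its share was 16.4 and 14.1 ppm in remaining tissue and 49.5 and 77.3 ppm in isolated mitochondria, with intervals (21.2 to 116 and 46.0 to 130) above those of remaining tissue. Cdkn1c was called higher by edgeR (1.48, adjusted p = 0.0360, where 16.0% of genes were called higher), by DESeq2 (1.51, adjusted p = 0.00301, 20.3% of genes), and with scaling to the nuclear total (1.96, adjusted p = 0.0356 by limma, 16.0% of genes). Without isolated mitochondria replicate 1 it was called as well (1.42, adjusted p = 0.0302 by limma, 24.9% of genes). Scaling to the total of all genes, which mitochondrially encoded reads dominate, gave -5.49. Of its exon bases, 30.65% lie opposite to the annotated gene Gm44732.

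The promoter windows of the 2 genes that were called are shown for comparison (RefSeq, GRCm38.p6, from 250 bases before to 50 bases after the gene start, both on the minus strand, Nctc1 at chr7:142558549-142558848 and Kcnq1ot1 at chr7:143296498-143296797). Capitals mark the dinucleotide CG, the site of methylation at imprinted control regions.
Nctc1: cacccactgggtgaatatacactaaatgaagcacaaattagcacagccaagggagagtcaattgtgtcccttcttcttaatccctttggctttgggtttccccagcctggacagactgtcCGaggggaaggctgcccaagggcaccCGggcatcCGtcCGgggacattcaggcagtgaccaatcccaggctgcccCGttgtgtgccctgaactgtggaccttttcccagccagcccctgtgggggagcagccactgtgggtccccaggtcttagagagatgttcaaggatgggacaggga
Kcnq1ot1: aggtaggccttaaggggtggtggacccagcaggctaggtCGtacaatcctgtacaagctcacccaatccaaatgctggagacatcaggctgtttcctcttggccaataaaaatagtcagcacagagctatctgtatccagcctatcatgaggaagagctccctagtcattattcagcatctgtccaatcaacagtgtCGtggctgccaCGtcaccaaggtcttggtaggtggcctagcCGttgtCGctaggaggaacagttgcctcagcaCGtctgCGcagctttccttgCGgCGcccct
Nctc1 had 5 such sites and Kcnq1ot1 had 9. The median over 32851 promoter windows of this length was 7, with at least 5 sites in 62.0% and at least 9 in 45.8% of them. Windows were found for 8 of the 10 genes, that of Mirg 5217 nt inside the annotated gene, and the others ranged from 0 sites in Rian to 13 in Meg3 and Peg3. The E-box CAGCTG (the same on both strands), a motif of myogenic factors, was in none of the 8 and in 16.3% of all windows. The letters TATAAA, on either strand, were in the window of Meg3 only and in 13.6% of all windows. Methylation was not measured.

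Peg3, a coding gene of its own domain (ENSMUSG00000002265, chr7:6703892-6730431, minus strand, 13324 nt of exons, none shared), had 77, 92, 45 and 91 normalized counts. Isolated mitochondria replicate 2 lay within remaining tissue and replicate 1, with 5 reads, below it. The log2 fold change of -0.39 (SE 0.42) did not pass the threshold (limma, adjusted p = 0.531). It turned to 0.11 without isolated mitochondria replicate 1, to 0.49 with scaling to the nuclear total, and to 0.04 and 0.06 with edgeR and DESeq2, so that no direction can be given.

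A share within a library does not depend on scaling between libraries. The 6 noncoding genes took 4900 of 5682 reads on the 10 genes in remaining tissue replicate 1 (86.2%, 95% Wilson interval 85.3 to 87.1) and 5287 of 6140 in replicate 2 (86.1%, 85.2 to 87.0). In isolated mitochondria they took 44 of 59 reads (74.6%, 62.2 to 83.9) and 66 of 104 (63.5%, 53.9 to 72.1). The noncoding share was thus lower in both libraries of isolated mitochondria, with a mean of 69.0% ± 7.86 (SD, n = 2) against 86.2% ± 0.0917, a difference of -17.2 percentage points. With 2 libraries against 2, the exact permutation test gave p = 0.333 (two-sided), the smallest value it allows. The difference was -15.2 points without Kcnq1ot1, -16.7 without Nctc1 and -11.6 without both. H19 alone took 31.6 and 36.4% of the reads in remaining tissue and 42.4 and 42.3% in isolated mitochondria, and Kcnq1ot1 22.3 and 21.7% against 5.1 and 6.7%. As a share of nuclear reads, the noncoding genes together held 409 and 442 ppm in remaining tissue and 436 and 364 ppm in isolated mitochondria, which overlap. The coding genes held 65.2 and 71.3 ppm against 149 and 210 ppm, which do not.

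**Figure D2:**
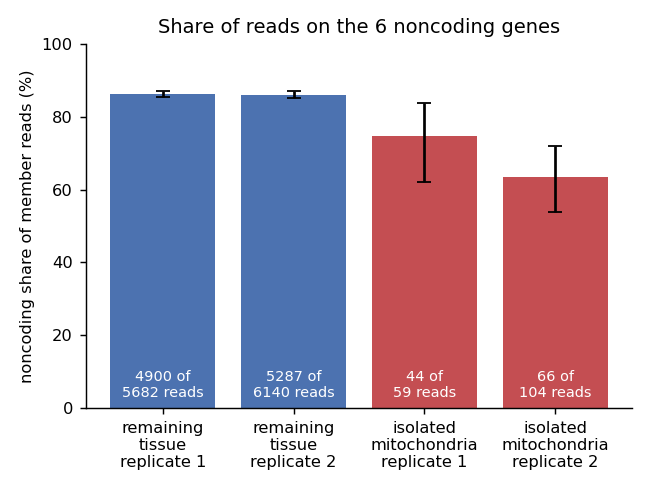
Share of the reads on the 10 imprinted genes that fell on the 6 noncoding genes, in percent, 1 bar per library with its 95% Wilson interval and the reads behind it. Both bars of remaining tissue stand at 86%, and those of isolated mitochondria at 74.6 and 63.5% with wider intervals.

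The balance of noncoding to coding RNA was also compared within each domain, as the log2 ratio of reads with 0.5 added. Kcnq1ot1 over Cdkn1c was 2.68 and 2.97 in remaining tissue and -0.65 and -0.95 in isolated mitochondria, a difference of -3.63. Reads of the lncRNA outnumbered those of the coding gene in remaining tissue and not in isolated mitochondria. Per kilobase of exon, Cdkn1c was the higher in both groups. It had 7.50 ppm against 1.17 of Kcnq1ot1 in remaining tissue, and 31.1 against 0.367 in isolated mitochondria. Meg3, Rian and Mirg over Dlk1 was 4.35 in both libraries of remaining tissue and 0.74 and -0.24 in isolated mitochondria, a difference of -4.11. H19 and Nctc1 over Igf2 was 6.87 and 7.41 against 4.52 and 6.77, a difference of -1.50 that rested on 1 read and 0 reads of Igf2 and shrank to -0.37 without isolated mitochondria replicate 1. Each of the 3 ratios was lower in both libraries of isolated mitochondria than in either of remaining tissue. Each gave p = 0.333 (exact permutation test, two-sided), unchanged by Benjamini-Hochberg adjustment over the 3. For H19 and Nctc1 over Igf2 this order was fixed by the depth. With 0 reads of Igf2, 6.77 was the highest value that isolated mitochondria replicate 2 could reach, below both values of remaining tissue. The limit of replicate 1, with fewer reads of H19 and Nctc1, was lower still, so this ratio gives no direction. The order was fixed in the same way for Meg3, Rian and Mirg over Dlk1. With 0 reads of Dlk1, both libraries of isolated mitochondria would still have stayed below 4.35. The order of that ratio thus gives no direction either, though its values lay further down, from 4 and 6 reads of Dlk1.

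Among the lncRNAs themselves, ratios chosen after seeing the data set Nctc1 and Kcnq1ot1 against H19. The log2 ratio of Nctc1 over H19 was -0.23 and -0.65 in remaining tissue and -1.42 and -2.08 in isolated mitochondria. Kcnq1ot1 over H19 was -0.50 and -0.75 against -2.87 and -2.57. Both ratios were lower in isolated mitochondria (exact permutation p = 0.333 for each, the smallest value allowed), which does not show which gene of a pair differed. Rian over Meg3 differed by 0.80 (exact permutation p = 0.667), and by -0.18 without isolated mitochondria replicate 2. Dlk1 over Peg3, both coding, differed by 4.46 (exact permutation p = 0.333).

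**Figure D3:**
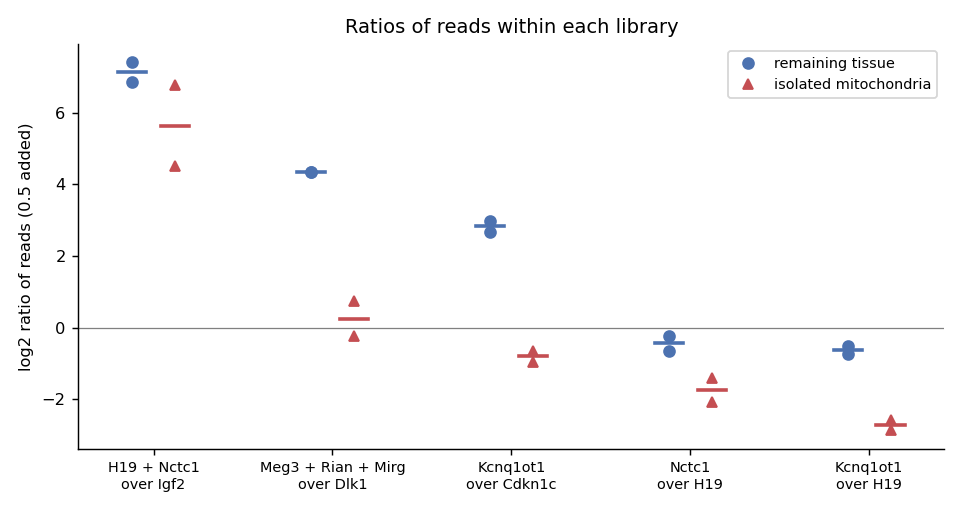
Log2 ratios of reads (0.5 added) within each library for the 3 domains with both classes and for Nctc1 and Kcnq1ot1 over H19; points are libraries and short bars group means. Kcnq1ot1 over Cdkn1c was 2.68 and 2.97 in remaining tissue and -0.65 and -0.95 in isolated mitochondria.

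Levels of different genes were compared per length, as ppm of nuclear reads per kilobase of exon (mean ± SD, n = 2). In remaining tissue the order was H19 with 68.5 ± 10.5, Nctc1 with 36.0 ± 1.91, Cdkn1c with 7.50 ± 0.799, Peg3 with 3.74 ± 0.474 and Kcnq1ot1 with 1.17 ± 0.0424. Meg3 (0.683 ± 0.0467) and Rian (0.598 ± 0.0672) differed by about their spread, and Igf2, Dlk1 and Mirg lay between 0.201 and 0.357. In isolated mitochondria H19 was again the first with 99.8 ± 1.63, followed by Cdkn1c with 31.1 ± 9.62 and Nctc1 with 25.9 and 16.1 in its libraries, whose spreads overlap. Dlk1 (6.43 ± 0.82) and Peg3 (5.59 ± 2.64) followed and could not be ordered. Rian, Meg3 and Igf2 lay between 0.865 and 1.42, Kcnq1ot1 at 0.367 ± 0.0679, and Mirg at 0. The place of Kcnq1ot1 against Igf2 in isolated mitochondria is not settled either, since Igf2 rested on 1 read.

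The scaling between libraries moved all genes together. The median log2 fold change over all genes tested was -0.44 with the deposited size factors, -0.17 with the upper quartile, -0.04 with edgeR, 0.01 with DESeq2 and 0.43 with the nuclear total. Relative to this median, over all 15 alternatives, Kcnq1ot1 lay between -2.30 and -1.86, Nctc1 between -1.74 and -0.93, and Cdkn1c between 1.20 and 1.78. H19 lay between -0.27 and 0.34, Peg3 between -0.46 and 0.39 and Meg3 between -1.59 and 1.18, on both sides of the median gene. Rian lay between 0.39 and 1.00. It reached the minimum mean only through isolated mitochondria, so that its place is in part set by the filter. Over all 15 alternatives Kcnq1ot1 and Nctc1 were thus below the median gene and Cdkn1c above it. Much of this agreement is built in, since taking off the median removes most of a change of scaling. The replicate block and the fit without trend leave the fold change itself as it was.

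**Figure D4:**
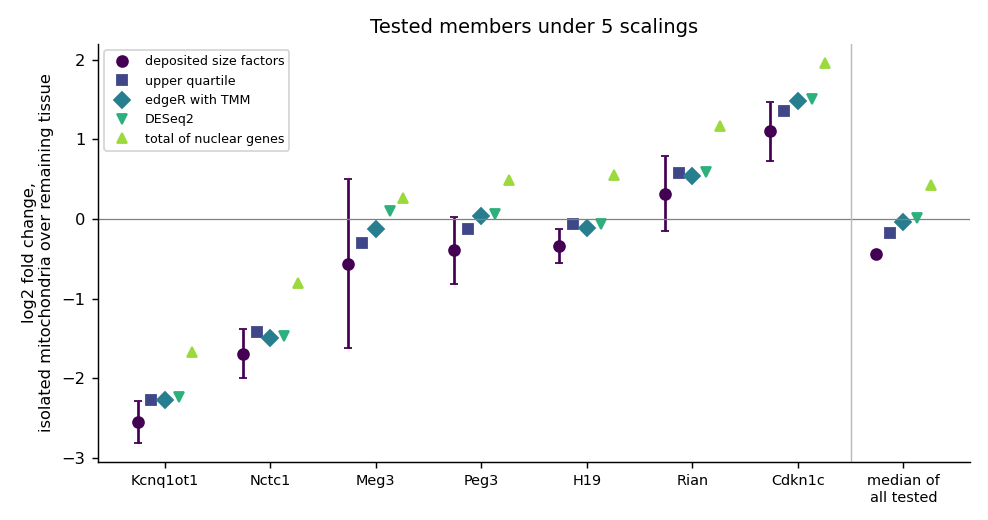
Log2 fold change, isolated mitochondria over remaining tissue, of the 7 genes tested under 5 scalings (symbols), with the SE of the main fit as error bars, and the median of all genes tested at the right. Kcnq1ot1 and Nctc1 lie below 0 and Cdkn1c above 0 under all 5, while H19, Meg3 and Peg3 change sign.

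Of 44 other imprinted genes listed by name, 30 were in the table and 12 were tested. In isolated mitochondria 2 were higher (7.32% of all genes) and 2 lower (9.3%), with a median log2 fold change of -1.11 against -0.44 over all genes tested. H13, Peg13 and Casd1 reached the minimum mean only through remaining tissue, so that this median is in part set by the filter. Ndn, which codes for the growth suppressor necdin, had 9, 6, 90 and 61 normalized counts (3.17, SE 0.46; limma, adjusted p = 0.0262), and it reached the minimum mean only through isolated mitochondria. Dcn, which codes for the matrix proteoglycan decorin, had 326, 300, 1909 and 1852 (2.58, SE 0.16; adjusted p = 0.00780). Trappc9, a subunit of a vesicle tethering complex, had 79, 73, 27 and 20 (-1.67, SE 0.31; adjusted p = 0.0393), and Gnas, the gene of the stimulatory G protein alpha subunit, had 1093, 1010, 552 and 592 (-0.88, SE 0.17; adjusted p = 0.0416). Both directions were thus present among them, as over all genes tested. Fewer were called when 1 library of remaining tissue was left out and more when 1 of isolated mitochondria was, as over all genes tested.

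Of 19 genes of the insulin-like growth factor (IGF) system, 18 were in the table and 13 were tested. By limma, 3 were higher (7.32% of all genes) and none lower, with a median of 0.97. Igf2bp3 (1 and 2 against 226 and 20 normalized counts) and Igfbp3 (13 and 13 against 54 and 40) reached the minimum mean only through isolated mitochondria. The median is thus in part set by the filter. At an unadjusted p under 0.05, 6 were higher and 2 lower, and edgeR and DESeq2 each called 7 higher and 1 lower. Over all genes, edgeR and DESeq2 called 16.0 and 20.3% higher and 12.6 and 12.7% lower. Igfbp4, an IGF-binding protein, had 59, 68, 507 and 582 normalized counts (3.08, SE 0.21; limma, adjusted p = 0.00822). Igf1, the ligand, had 46, 55, 253 and 334 (2.51, SE 0.26; adjusted p = 0.0156), and Igfbp6, a binding protein with a preference for Igf2, had 56, 48, 145 and 233 (1.81, SE 0.33; adjusted p = 0.0382). The receptors Igf1r, Igf2r and Insr and the adaptors Irs1 and Irs2 did not pass the threshold, with log2 fold changes from -3.65 to -0.45. The value of -3.65 was that of Irs2 (81, 137, 0 and 71 normalized counts), where the 0 enlarged it, since Irs2 was 3.07-fold lower by the means. When 1 library of isolated mitochondria was left out, more genes of this list were called, as was so over all genes tested.

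Of 26 genes in or next to the 4 domains, 17 were in the table and 10 were tested. By limma, 2 were lower (9.3% of all genes) and none higher (7.32%), with a median of -0.68. No gene was higher at an unadjusted p under 0.05, and edgeR and DESeq2 called 1 and 2 higher and 3 each lower. Over all genes they called 16.0 and 20.3% higher and 12.6 and 12.7% lower. Both that were lower by limma are troponin genes of fast fibres near H19, and Tnnt3 is also among the myofibre markers below. Tnnt3 had 20568, 20741, 6280 and 6430 normalized counts (-1.70, SE 0.17; limma, adjusted p = 0.0144), and Tnni2 had 10825, 10812, 4787 and 4665 (-1.19, SE 0.16; adjusted p = 0.0229). Fewer genes of this list were called when 1 library of remaining tissue was left out, and more when 1 of isolated mitochondria was, as over all genes tested.

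**Figure D5:**
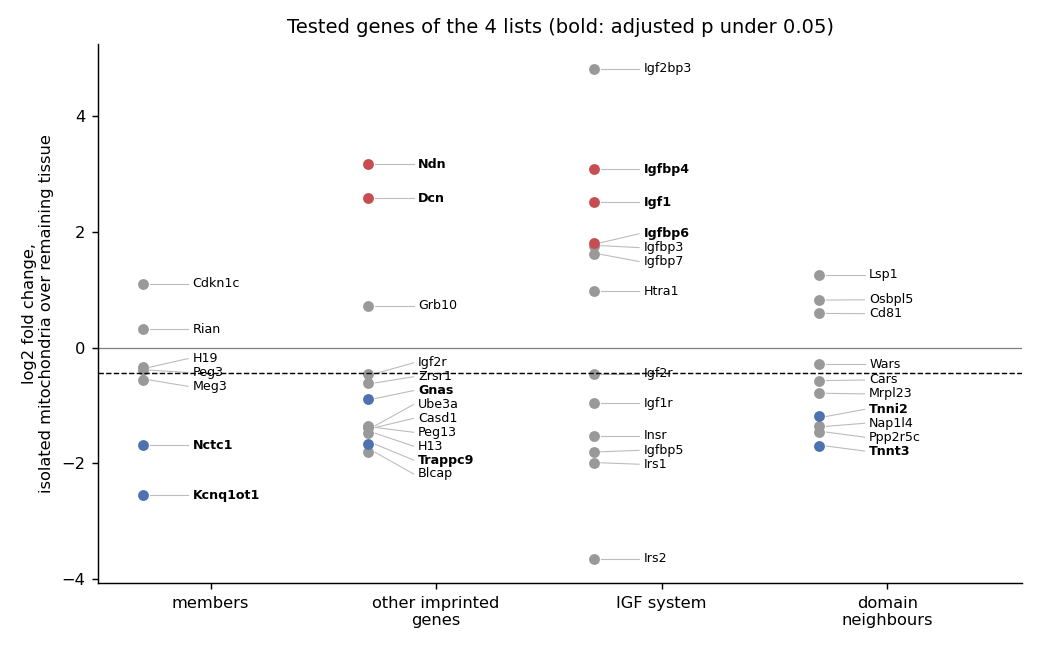
Log2 fold change, isolated mitochondria over remaining tissue, of each tested gene of the 4 lists (columns), in red and bold where higher, in blue and bold where lower at an adjusted p under 0.05, and in grey otherwise; the dashed line is the median of all genes tested, -0.44. Igfbp4, Ndn, Dcn, Igf1 and Igfbp6 lie well above it, and Kcnq1ot1, Nctc1, Tnnt3, Trappc9, Tnni2 and Gnas below.

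Markers of cell types moved with the groups as well. By limma, 7.32% of all genes tested were called higher and 9.3% lower. In samples such as these, fewer cells of a type, less RNA per cell and RNA kept or lost during the isolation of mitochondria cannot be told apart. Of 9 myofibre markers, 8 were lower in isolated mitochondria, and their summed normalized counts were 521510 and 501203 in remaining tissue and 63442 and 56145 in isolated mitochondria. None of these myofibre markers was at 0 in any library. Of 8 markers of fibro-adipogenic and tendon cells, 6 were tested and 5 were higher, with sums of 2071 and 2119 against 14233 and 21010. Most of these sums came from Gsn alone (1385 and 1422 against 11356 and 14945). Fmod, also tested, lay lower without overlap (177 and 129 against 36 and 101) and did not pass the threshold, and Ly6a overlapped (17 and 16 against 27 and 5). All 3 macrophage markers tested of 5 were higher (sums of 89 and 109 against 524 and 637). Scx and Adgre1, among those counted as higher, reached the minimum mean only through isolated mitochondria, as did Rbfox3 below, so that these counts are in part set by the filter. Of 5 endothelial markers 1 was lower (714 and 784 against 244 and 333), and none of 5 satellite cell markers reached the minimum (20 and 19 against 63 and 60), with Myf5 and Calcr at 0 in isolated mitochondria. Of 5 neuron markers the table lists Rbfox3, with 0 and 0 against 471 and 648. The nuclear-retained lncRNAs Malat1 and Neat1 summed to 11596 and 10380 against 3628 and 1311 and did not pass the threshold by limma, while edgeR and DESeq2 called both lower (log2 fold changes of -2.33 and -2.34; limma, adjusted p = 0.0578 and 0.0735). The part of cell types or of nuclear RNA in the values of Dlk1, Igf1, Kcnq1ot1 and Nctc1 was not tested.

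For each gene tested, the nuclear gene with the most similar levels was named by the Euclidean distance of log2(normalized count + 1) over the 4 libraries. These were Aplp2 for H19 (0.23), Idh3g for Nctc1 (0.17), Retreg1 for Kcnq1ot1 (0.39), Fndc3a for Cdkn1c (0.12), Smc3 for Peg3 (0.19), Rarb for Rian (0.08) and Rpap2 for Meg3 (0.00). All 7 are protein-coding. With 1 to 4 reads in a library, as for Meg3, equal values are frequent, and a distance of 0 means only that the rounded values coincide.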

How the data were processed

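RNA of isolated mitochondria and of remaining tissue of wild-type mouse skeletal muscle was sequenced in 2 libraries each, and the labels gave groups and replicate numbers. According to the methods and the submitters' processing notes, reads were trimmed with Trimmomatic 0.39, aligned with STAR 2.7.10a to GRCm38 and counted over exons with featureCounts 2.0.2, leaving out reads with several genes or positions, and groups were compared with DESeq2 1.30.1. These versions are those of the notes, and the methods name other releases of STAR, of the counting tool and of DESeq2. The strand setting and the annotation release of the counting are not given in the sources used here. The isolation, described for heart, included digitonin and RNase A, and fragmentation time was adjusted for mitochondrial RNA, so that its effect and the groups cannot be told apart. The deposited signal is gene counts that the authors divided by a size factor per library and rounded (normalized counts). Whole reads were recovered in isolated mitochondria, where values under 2000 were whole multiples of the step within 0.5 (99.95% of 10508 and 99.97% of 11660 values). In remaining tissue they were estimated from the medians of ratios, with 1 factor for both libraries. edgeR and DESeq2 on these reads called 1977 and 2281 genes.

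The main test was limma 3.58.1 (eBayes with trend, two-sided) in R 4.3.3 on log2(normalized count + 1) for genes with a mean of at least 20, with Benjamini-Hochberg adjustment over 6916 genes and a threshold of 0.05. The pseudocount of 1 can understate changes of low genes. A 0 in a library can instead overstate them, as for Irs2, with a log2 fold change of -3.65 though 3.07-fold lower by the means. The design had been planned for these units, and the fit was tested on simulated data. Single values were compared with exact permutation tests. Alternatives were other pseudocounts, minima, scalings and tools (edgeR 4.0.16, DESeq2 1.42.0), a replicate block and leaving out each library. Intervals are 95% Wilson intervals, and the floor was 3 reads. Exon lengths and overlaps came from GENCODE M21 (16457 of 16472 identifiers found), near-identical stretches (at least 50 nt, 95% identity) and the 17 nuclear copies of mitochondrial genes from BLAST 2.17.0, and sequences from RefSeq. Named genes were the 10 genes, list genes past the threshold, the nearest gene by level, and overlapping genes. The genes and lists were chosen with earlier results of these data known. The result of a further marker list is not reported here.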

Additional observations from a re-analysis of the deposited data

How the results depend on the processing

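Over all genes tested, 1149 were called (506 higher and 643 lower). The count was 3691 with no minimum mean, 682 with a minimum of 5, 6732 with scaling to the total of all genes (38 higher, 6694 lower), 1977 with edgeR (1106 and 871), 2281 with DESeq2 (1404 and 877) and 472 to 4841 when 1 library was left out. The split was 1107 and 183 with the nuclear total and 619 and 435 with the upper quartile. Scaling to the total of all genes moved the median log2 fold change to -6.90. Where a library was left out, the lone library of its group was assumed to vary like the other group. Of the 10 imprinted genes, 2 were called, and 7 with the total of all genes, 1 with the upper quartile, 1 without the trend and 0 to 4 when 1 library was left out. Of the other imprinted genes 4 were called, and 7 with no minimum, 12 with the total of all genes, 2 each with a minimum of 5, the nuclear total, the upper quartile and no trend, and 1 to 9 with 1 library left out. Of the IGF system 3 were called, and 12 with the total of all genes, 5 with the nuclear total, 8 each with edgeR and DESeq2, and 4 to 12 with 1 library left out. Of the domain neighbours 2 were called, and 10 with the total of all genes, 1 each with the nuclear total and no trend, 4 with edgeR, 5 with DESeq2 and 1 to 8 with 1 library left out. The cause of these shifts was not tested.

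The replicate block gave 1774 genes over all (630 higher and 1144 lower), 9 of the IGF system and 4 of the domain neighbours, and kept the calls of Kcnq1ot1 and Nctc1. The deviations of same-numbered libraries correlated at 0.141 over 6916 genes, and with 2 pairs the numbers alone do not show that libraries were paired.

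Signs turned for H19 (0.55 with the nuclear total), Meg3 (0.27 with the nuclear total, 0.10 with DESeq2 and 0.75 without isolated mitochondria replicate 2), Peg3 (0.49 with the nuclear total, 0.04 with edgeR, 0.06 with DESeq2 and 0.11 without isolated mitochondria replicate 1), Rian (-6.01 with the total of all genes), Cdkn1c (-5.49 with the total of all genes) and Rian over Meg3 (-0.18 without isolated mitochondria replicate 2). With 1 library left out, Meg3 ran from -1.87 to 0.75, Peg3 from -0.89 to 0.11, and Rian over Meg3 from -0.18 to 1.77. The noncoding share kept its direction in all 9 alternatives, with differences of -22.7 to -11.6 points, -16.3 per kilobase and -17.2 within replicate numbers. The ratios of the 3 domains kept theirs in all 5 alternatives each. For H19 and Nctc1 over Igf2, and for Meg3, Rian and Mirg over Dlk1, this was set by the depth. Kcnq1ot1 over Cdkn1c has no value without Kcnq1ot1.

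Depth limits most values, since a single read is worth 9.049 or 5.059 normalized counts in isolated mitochondria and 0 reads allow 29.7 or 16.6 ppm by the limit of 3 reads. With 2 libraries against 2 the exact permutation test cannot go below 0.333.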

Other observations

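Some genes outside the rule for named genes were singled out after their values were seen. Airn, the antisense lncRNA of the Igf2r domain, had 20 and 20 normalized counts in remaining tissue and 0 and 5 in isolated mitochondria, below the minimum mean. Peg13, the lncRNA within Trappc9, had 59 and 44 against 18 and 20 (log2 fold change -1.38, SE 0.35; limma, adjusted p = 0.0702). Both lay lower in isolated mitochondria without overlap, as did 43.7% of all genes tested, and Airn had 0 reads and 1 read there. The lncRNAs Meg3 and Rian overlapped between groups. Plagl1, a paternally expressed zinc finger gene of growth control, had 3 and 3 against 18 and 51, from 2 and 10 reads in isolated mitochondria. Igf2bp3, whose protein binds Igf2 mRNA, had 1 and 2 against 226 and 20, so that a single library held most of its 25 and 4 reads in isolated mitochondria (4.82, SE 1.47; limma, adjusted p = 0.0984).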
